A study of Mus musculus with 6 samples.

Results

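The aminoacyl-tRNA synthetases are the enzymes that join each amino acid to its transfer RNA. Their transcripts were followed in mouse hearts after deletion of Mrps5, which encodes a small-subunit protein of the ribosome inside mitochondria. Members were protein-coding rows of the deposited table whose gene symbol was that of a synthetase (from Aars to Yars, with a final 2 in the symbol for the mitochondrial enzyme, together with Farsa, Farsb, Fars2, Ears2 and Tarsl2) or that named Aimp1, Aimp2 or Eef1e1, the scaffold proteins of the multi-synthetase complex. This rule gave 40 of the 54532 genes in the table, of which 22046 were protein-coding, and 39 of the 40 are described. These were 18 cytosolic enzymes or subunits, 2 enzymes that serve both compartments (Gars and Kars, called dual below), 16 mitochondrial enzymes and 3 scaffold proteins. Eprs, which charges both glutamate and proline in the cytosol, fell outside the written pattern and was counted apart.

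The data are RNA sequencing libraries of the heart from 6 mice, and the study's methods describe the tissue as ventricular. The 3 Ctrl mice were Mrps5 fl/fl, and the 3 cKO mice were Mrps5 fl/fl; MCM, with MCM a MerCreMer transgene that expresses a tamoxifen-inducible Cre recombinase in cardiomyocytes. Both groups received tamoxifen at 45 mg/kg/day for 5 days at 8 weeks of age, and hearts were taken 12 weeks later. No Ctrl mouse carried MCM, so the presence of Cre and the deletion of Mrps5 cannot be told apart, and cells other than cardiomyocytes kept the gene. Values are FPKM, fragments per kilobase of gene after correction for library size, which can be compared between genes.

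Each amino acid has its own synthetase, and a synthetase either works in the cytosol, where it feeds the ribosomes that read nuclear messages, or in mitochondria, where it feeds the ribosomes that read mitochondrial messages. Nearly all mitochondrial enzymes come from genes of their own in the nucleus, whereas glycyl- and lysyl-tRNA synthetase are made for both compartments from a single gene each. Many cytosolic synthetase genes are known targets of ATF4, the transcription factor of the integrated stress response, which cells switch on when amino acids run short or mitochondria fail.

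Between 15989322 and 24875499 reads were recovered per heart from FPKM and gene length. Mrps5 itself was at 5.20, 6.45 and 6.33 FPKM in Ctrl hearts and 1.12, 1.23 and 1.31 FPKM in cKO hearts, so 20.4% of the Ctrl level remained. Cardiomyocyte markers were present in all 6 hearts. Of 10 of them, 6 were lower in cKO and none higher, and their summed level was 20565 to 25318 FPKM in Ctrl against 11751 to 18808 FPKM in cKO. Of 5 endothelial markers 4 were lower (summed 100.2 to 121 FPKM in Ctrl against 67.4 to 78.1 in cKO), of 7 fibroblast markers 2 were higher and 1 lower (154 to 178 against 143 to 156 FPKM), of 2 tested smooth muscle markers 1 was higher (15.8 to 28.1 against 27.8 to 53.0 FPKM) and of 3 tested macrophage and leukocyte markers 1 was lower (20.3 to 26.6 against 20.3 to 21.2 FPKM). No atrial (25.2 to 989.8 against 105 to 714 FPKM) or erythroid marker (869 to 2031 against 577 to 1571 FPKM) was called. No marker in these lists was at 0 in all hearts, and their part in the synthetase results was not tested. The heart labelled cKO replicate 2 stood apart in Xist (10.7 FPKM against at most 0.127 in the other 5) and in Y-linked genes, which were at 0. Such values in this heart are those of a female mouse, whereas the study reports that all its mice were male. Each member was counted with and without this heart, and with and without each of the others.

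Cytosolic synthetase transcripts were higher in the cKO hearts as a group, and mitochondrial ones were not. Summed over the 20 cytosolic and dual members, the level was 264, 266 and 266 FPKM in the Ctrl hearts and 789, 696 and 703 FPKM in the cKO hearts. The lowest cKO heart was thus far above the highest Ctrl heart, and the ratio of the group means was 2.75. The 16 mitochondrial members summed to 77.7, 82.1 and 76.7 FPKM in Ctrl hearts and 80.4, 77.1 and 77.4 FPKM in cKO hearts, with overlapping groups and a ratio of 0.993. The 3 scaffold proteins lay in between, at 24.1, 24.7 and 23.5 FPKM in Ctrl and 37.8, 35.9 and 33.3 FPKM in cKO, a ratio of 1.48. In bulk tissue a larger number of cells of a type and more RNA per cell cannot be told apart.

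**Figure D1:**
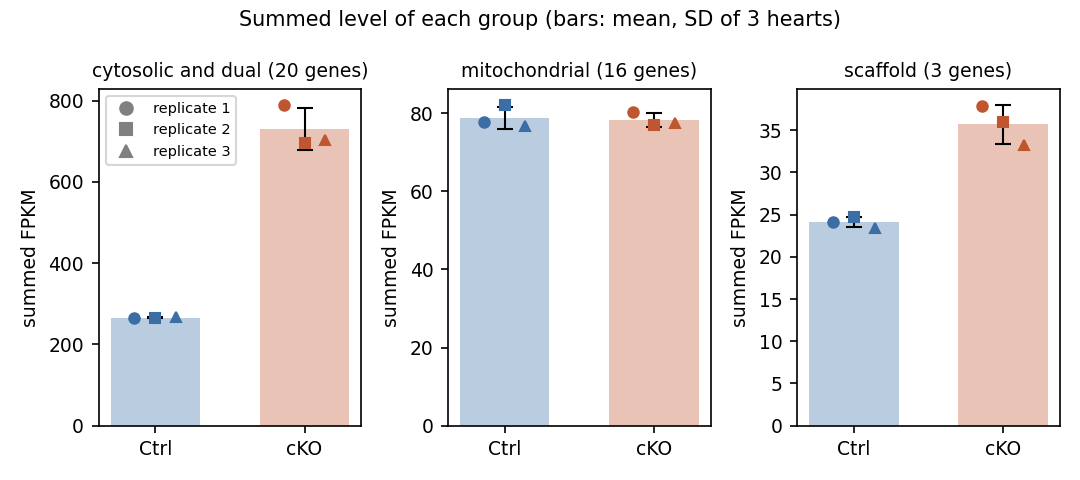
Summed FPKM of the 20 cytosolic and dual synthetase genes, the 16 mitochondrial synthetase genes and the 3 scaffold genes in each heart. Points are hearts, bars the mean and error bars the SD of 3 hearts. The cytosolic sum lies between 696 and 789 in cKO and between 264 and 266 in Ctrl, while the mitochondrial sums of the groups overlap.

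All 39 members passed the filter of a mean of at least 0.5 FPKM, with 84 to 10899 reads per gene and heart. Each was tested with limma on log2(FPKM + 1), with p-values adjusted by Benjamini-Hochberg over all 12944 genes tested, and a gene was called at an adjusted p under 0.05. Of all genes tested, 16.3% were called higher in cKO, 17% lower and 33.3% in either direction, and the median log2 fold change was -0.02. Among the 20 cytosolic and dual members, 17 were higher and 1 was lower. Among the 16 mitochondrial members 2 were higher, 2 lower and 12 not called. Of the 3 scaffold proteins 2 were higher. The 3 Ctrl and 3 cKO values did not overlap, with cKO higher, in 18 of the 20 cytosolic and dual members, 5 of the 16 mitochondrial ones and all 3 scaffold genes, against 24.8% of all genes tested. They did not overlap with cKO lower in 2, 5 and 0 members, against 26.4% of all genes.

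The median log2 fold change was 1.19 in the cytosolic and dual group (range -0.41 to 2.64), 0.02 in the mitochondrial group (range -0.54 to 0.45) and 0.61 over the scaffold genes. An increase that was called and reached at least 1 on the log2 scale was found in 12 cytosolic and dual members, 1 scaffold gene and 0 mitochondrial members, against 2.13% of all genes tested. When mtDNA-encoded genes were taken out of the total used for scaling, 2649 genes were higher and 1620 lower in place of 2110 and 2205, and the counts of members called higher were then 18 cytosolic and dual, 4 mitochondrial and 2 scaffold.

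Reads may be shared where genes overlap, and 13 members, 10 of them among the 24 that were called, overlapped another tested gene in position. In the exons annotated in GENCODE M21, 11 of the 13 shared bases with that gene and 2 (Lars and Wars) shared none. The shared exonic bases were 30 of 5943 in Yars, 89 of 5152 in Ears2, 163 of 5596 in Aimp1 and 2034 of 8885 in Iars2, all with a gene on the opposite strand, and the others are given with their genes below. For Iars2 (log2 fold change -0.26) these were 22.9% of its exonic bases. They are shared with Rab3gap2, which was called higher (log2 fold change 0.58, adjusted p = 0.00686). Of the 14 cytosolic and dual genes without an overlap in position with a tested gene, 12 were called higher. Overlaps with genes that did not pass the filter were left out of these counts. One such is that of Aars with Exosc6 (1326 bases, same strand), which was at a mean of 0 FPKM.

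**Figure D2:**
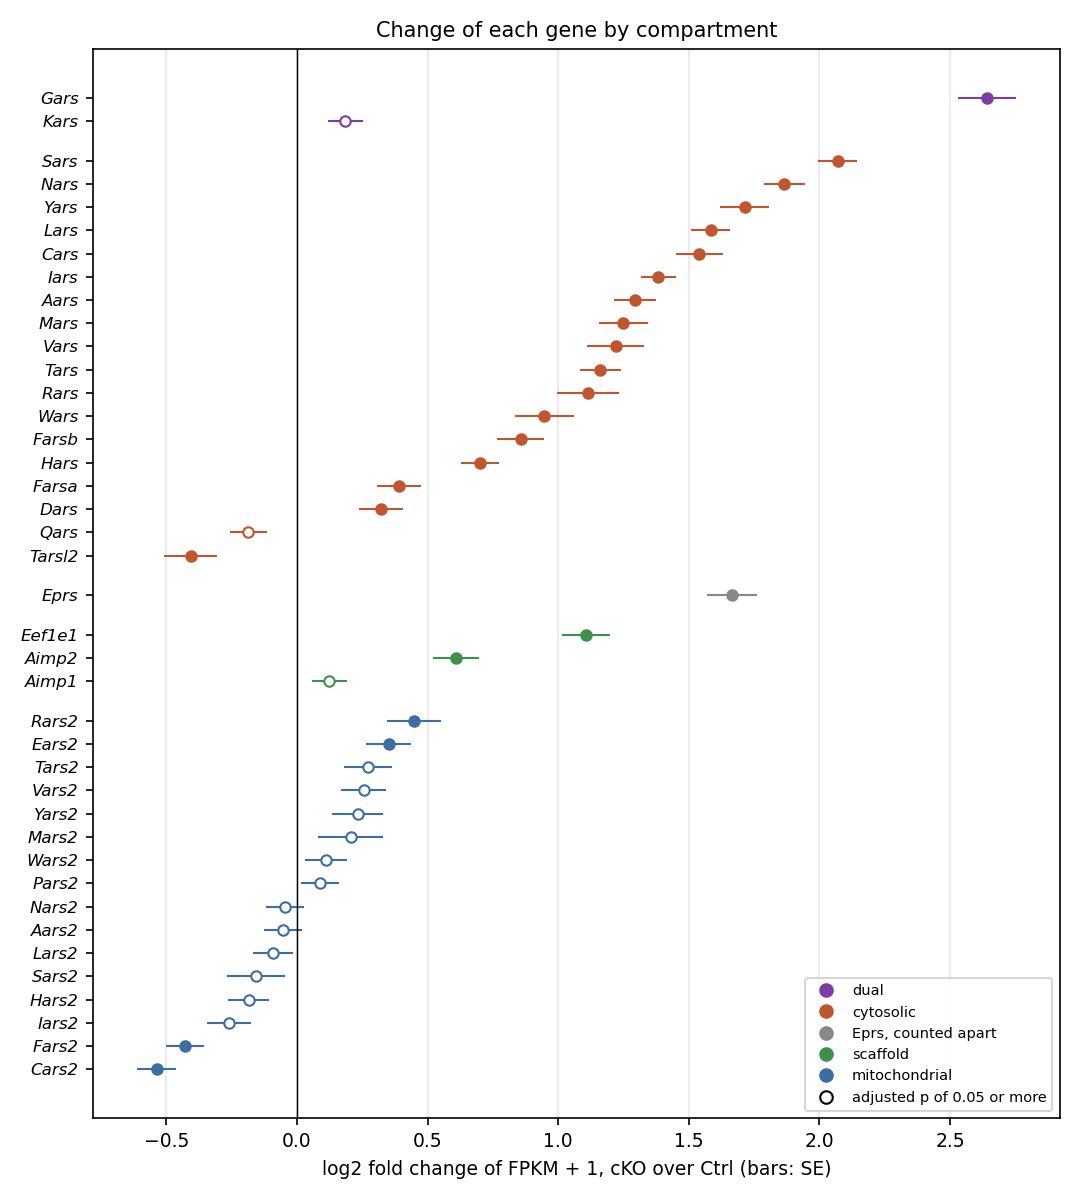
Log2 fold change of FPKM + 1 (cKO over Ctrl) for each member by compartment, with Eprs apart, on the horizontal axis. Points are limma estimates, bars their SE, and open points had an adjusted p of 0.05 or more. All but 2 of the 20 cytosolic and dual genes lie to the right of 0, from 0.19 to 2.64, and the mitochondrial genes spread around 0 from -0.54 to 0.45.

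The largest increase of any member was that of Gars, glycyl-tRNA synthetase (ENSMUSG00000029777, chr6:55038007-55079500, plus strand), which supplies both compartments. It was at 23.2, 20.7 and 22.1 FPKM in Ctrl hearts and 165, 126 and 139 FPKM in cKO hearts. All 3 cKO hearts stood far above the Ctrl hearts, and the mean rose 6.51-fold from 22.00 ± 1.23 to 143 ± 19.6 FPKM (SD, n = 3 each). The log2 fold change was 2.64 ± 0.110 (SE, as for all log2 fold changes below, adjusted p = 8.79e-05). Kars, lysyl-tRNA synthetase and the other dual gene, was the second most abundant synthetase in Ctrl and differed little between groups. It was at 25.3, 27.1 and 26.3 FPKM in Ctrl hearts and 31.2, 29.02 and 29.8 FPKM in cKO hearts, which did not overlap but missed the threshold (log2 fold change 0.19 ± 0.0678, adjusted p = 0.075). With mtDNA-encoded genes taken out of the scaling it was called, at a log2 fold change of 0.27.

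After Gars, the largest increases were those of Sars and Nars, both outside the multi-synthetase complex. Sars, seryl-tRNA synthetase (ENSMUSG00000068739, chr3:108424865-108445209, minus strand), was at 15.4, 15.6 and 15.3 FPKM in Ctrl hearts and 72.98, 67.3 and 64.02 FPKM in cKO hearts, a log2 fold change of 2.07 ± 0.0736 (adjusted p = 8.73e-05). Nars, asparaginyl-tRNA synthetase and the most abundant member in Ctrl, was at 37.2, 35.8 and 37.3 FPKM in Ctrl hearts and 148, 136 and 127 FPKM in cKO hearts, a log2 fold change of 1.87 ± 0.0793 (adjusted p = 9.19e-05). Both groups were tight, and no cKO heart came near a Ctrl heart. Together Gars, Sars and Nars made up 27.95% ± 0.775 of the summed FPKM of the cytosolic and dual members in Ctrl and 47.7% ± 0.992 in cKO (SD, n = 3 each).

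Tyrosine and cysteine enzymes started lower and rose by a similar ratio. Yars, tyrosyl-tRNA synthetase (ENSMUSG00000028811, chr4:129189760-129219607, plus strand), was at 5.51, 5.71 and 5.40 FPKM in Ctrl hearts and 19.4, 23.4 and 18.8 FPKM in cKO hearts, a log2 fold change of 1.71 ± 0.0942 (adjusted p = 0.000184). Cars, the cysteinyl enzyme and the scarcest cytosolic member in Ctrl, was at 3.48, 3.19 and 2.88 FPKM in Ctrl hearts and 11.6, 11.7 and 10.2 FPKM in cKO hearts, and rose by 1.54 ± 0.0893 on the log2 scale (adjusted p = 0.000202). Each was higher in every cKO heart than in any Ctrl heart.

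Aars, Vars and Tars charge alanine, valine and threonine. Aars was at 8.62, 8.28 and 8.42 FPKM in Ctrl hearts and 20.7, 24.5 and 21.5 FPKM in cKO hearts, a log2 fold change of 1.29 ± 0.0816 (adjusted p = 0.000309). Vars, which binds the elongation factor that brings charged tRNA to the ribosome, was at 7.62, 7.29 and 7.70 FPKM in Ctrl hearts and 22.1, 16.4 and 18.6 FPKM in cKO hearts, a log2 fold change of 1.22 ± 0.109 (adjusted p = 0.001). Tars was at 5.40, 4.95 and 5.12 FPKM in Ctrl hearts and 12.8, 13.7 and 11.9 FPKM in cKO hearts, a log2 fold change of 1.16 ± 0.0778 (adjusted p = 0.000387). The groups stood apart in all 3 genes, with the widest spread among cKO hearts in Vars.

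Smaller increases were found for the tryptophan, phenylalanine and histidine enzymes. Wars rose from a mean of 14.8 in Ctrl to 29.7 FPKM in cKO (log2 fold change 0.95, adjusted p = 0.00209), and Hars from 15.9 in Ctrl to 26.5 FPKM in cKO (log2 fold change 0.70, adjusted p = 0.00148). Cytosolic phenylalanyl-tRNA synthetase is built from alpha and beta subunits in equal number, encoded by Farsa and Farsb. Farsb rose from 15.3 in Ctrl to 28.5 FPKM in cKO (0.86, adjusted p = 0.0015) and Farsa from 4.76 in Ctrl to 6.56 FPKM in cKO (0.39, adjusted p = 0.013). The FPKM ratio of Farsb to Farsa was 3.15, 3.13 and 3.36 in Ctrl and 4.46, 3.78 and 4.88 in cKO, so the transcripts of the paired subunits were further apart in every cKO heart.

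Tarsl2, a further threonyl-tRNA synthetase gene, was the only cytosolic member called lower. It was at 5.59, 6.48 and 6.58 FPKM in Ctrl hearts and 3.92, 5.06 and 4.38 FPKM in cKO hearts (log2 fold change -0.41 ± 0.103, adjusted p = 0.0234), and the call was lost without a filter on low values and without Ctrl replicate 2 or 3 or cKO replicate 1 or 3, at changes of -0.41, -0.38, -0.37, -0.34 and -0.40. The FPKM ratio of Tars to Tarsl2 went from 0.836 ± 0.112 to 2.89 ± 0.315 (SD, n = 3 each), so that the gene with the lower level in Ctrl had the higher level in cKO. Tarsl2 shares 120 of its 6741 exonic bases with Tm2d3 on the same strand, and reads there could belong to either gene.

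The multi-synthetase complex gathers the enzymes for arginine, aspartate, glutamine, glutamate, proline, isoleucine, leucine, lysine and methionine around the 3 scaffold proteins. Of its 8 synthetase genes, with Eprs counted in, 6 were higher in cKO and none lower, with a median log2 fold change of 1.18. Of the 13 cytosolic and dual genes outside the complex 12 were higher and 1 lower, with a median of 1.22. A called increase of at least 1 on the log2 scale was found in 5 of the 8 and in 8 of the 13. Increases were thus found on both sides of this division, and the 2 cytosolic and dual genes without a call, Kars and Qars, both belong to the complex.

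Eprs, the bifunctional enzyme for glutamate and proline, was at 7.24, 7.08 and 7.16 FPKM in Ctrl hearts and 27.5, 21.7 and 25.8 FPKM in cKO hearts, a log2 fold change of 1.67 ± 0.0964 (adjusted p = 0.000202). Lars, leucyl-tRNA synthetase, was at 14.4, 14.6 and 13.1 FPKM in Ctrl hearts and 46.6, 42.9 and 42.8 FPKM in cKO hearts, a log2 fold change of 1.58 ± 0.0756 (adjusted p = 0.000146). Iars, for isoleucine (ENSMUSG00000037851, chr13:49682100-49734267, plus strand), was at 12.1, 12.4 and 12.8 FPKM in Ctrl hearts and 33.7, 32.9 and 35.5 FPKM in cKO hearts, a log2 fold change of 1.38 ± 0.0672 (adjusted p = 0.000146). In these 3 genes the values within each group lay close together and those of the groups far apart.

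Mars, the methionyl enzyme, which also charges the tRNA that starts every cytosolic protein, was at 15.1, 14.5 and 16.2 FPKM in Ctrl hearts and 40.6, 33.5 and 39.2 FPKM in cKO hearts, a log2 fold change of 1.25 ± 0.0936 (adjusted p = 0.000548). It shares 68 of its 3423 exonic bases with Ddit3 on the opposite strand. Rars, for arginine, was at 10.2, 11.8 and 10.9 FPKM in Ctrl hearts and 29.4, 21.8 and 23.7 FPKM in cKO hearts, a log2 fold change of 1.11 ± 0.119 (adjusted p = 0.00154). Dars, for aspartate, rose from 16.3 in Ctrl to 20.7 FPKM in cKO (log2 fold change 0.32, adjusted p = 0.0268). This was the smallest called increase among the cytosolic genes, and it passed the threshold in 10 of 15 alternatives. It was not called without Ctrl replicate 1 or 3 or cKO replicate 1 or 3, at 0.28, 0.31, 0.26 and 0.34, nor with a replicate block, and its adjusted p ran from 0.0107 to 0.0889 over the alternatives.

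Qars, glutaminyl-tRNA synthetase, was at 9.03, 9.18 and 9.21 FPKM in Ctrl hearts and 8.28, 7.36 and 8.12 FPKM in cKO hearts, lower in every cKO heart but not called (log2 fold change -0.19 ± 0.0707, adjusted p = 0.0845). Mammalian mitochondria have no glutaminyl enzyme and make their glutaminyl-tRNA from glutamyl-tRNA, so Qars has no mitochondrial counterpart among the members.

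The scaffold proteins differed among themselves. Eef1e1, the scaffold protein that binds methionyl-tRNA synthetase (ENSMUSG00000001707, chr13:38644207-38659058, minus strand), was at 3.70, 3.59 and 3.88 FPKM in Ctrl hearts and 9.94, 9.64 and 8.02 FPKM in cKO hearts, a log2 fold change of 1.11 ± 0.0923 (adjusted p = 0.00083). Aimp2, the core around which the complex is built, was at 8.18, 8.60 and 8.17 FPKM in Ctrl hearts and 14.6, 13.3 and 11.9 FPKM in cKO hearts, a log2 fold change of 0.61 ± 0.0872 (adjusted p = 0.00338). Aimp1, which carries a tRNA-binding domain, was at 12.2, 12.5 and 11.4 FPKM in Ctrl hearts and 13.3, 13.03 and 13.3 FPKM in cKO hearts and was not called (log2 fold change 0.12 ± 0.0673, adjusted p = 0.195). Every cKO heart lay above every Ctrl heart for all 3, by a wide margin for Eef1e1 and a narrow one for Aimp1. Aimp2 shares 487 of its 1654 exonic bases (29.4%) with Eif2ak1 on the opposite strand, and without information on strand reads in these bases could belong to either gene. Eif2ak1 was not called (log2 fold change 0.09, adjusted p = 0.35).

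**Figure D3:**
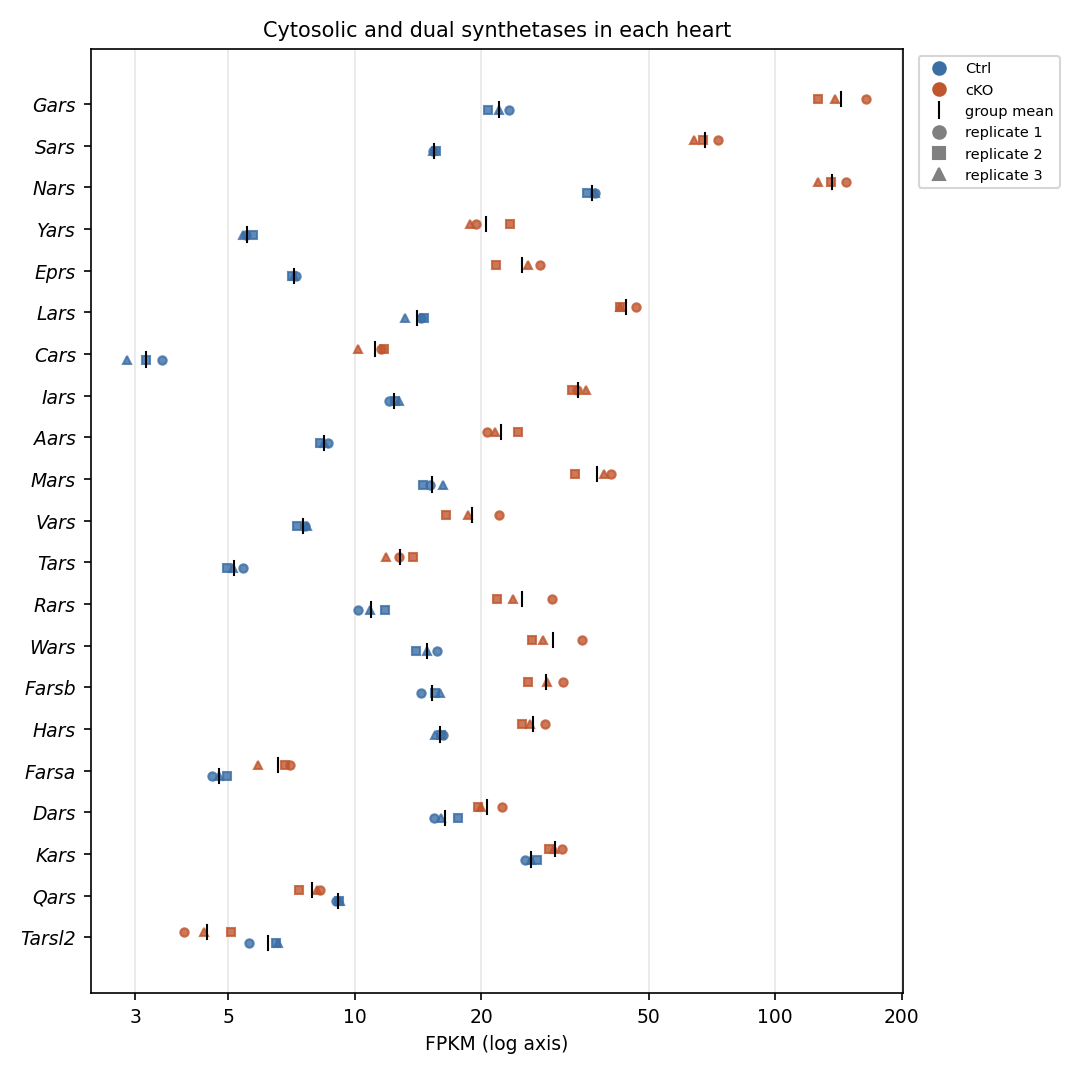
FPKM (log axis) of the cytosolic and dual synthetase genes, and of Eprs, in each heart. Symbols are hearts by replicate number, colours the groups, and vertical ticks the group means, with genes in order of their change. The cKO hearts lie to the right of the Ctrl hearts in all genes shown except Qars and Tarsl2.

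The order of the levels within the heart changed with these increases. In Ctrl the most abundant cytosolic and dual transcripts were Nars (36.8 FPKM), Kars (26.3), Gars (22.0) and Dars (16.3), and the scarcest were Tars (5.16), Farsa (4.76) and Cars (3.18). In cKO they were Gars (143), Nars (137), Sars (68.1) and Lars (44.1), with Qars (7.92), Farsa (6.56) and Tarsl2 (4.45) at the bottom. Gars and Nars overlapped in cKO, and their order there was within the spread of the hearts. Of the 19 neighbouring pairs in the order, 8 overlapped in Ctrl and 10 in cKO. Those from Dars to Lars in Ctrl formed a run of overlapping neighbours between 14.04 and 16.3 FPKM.

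Synthetases belong to 2 unrelated structural classes. Of the 9 cytosolic and dual genes of class I 8 were higher and none lower, with a median log2 fold change of 1.25, and of the 11 of class II 9 were higher and 1 lower, with a median of 0.86. Among the mitochondrial genes, 2 of 9 in class I were higher and 1 lower, and 0 of 7 in class II were higher and 1 lower. Neither the division by class nor that by complex was tested, since genes are not replicates.

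The bases around the transcription start were read for the core of the composite element bound by ATF4 with a C/EBP partner, TGATGNAA on either strand, since several cytosolic members rose together. RefSeq promoter windows (GRCm38.p6, 250 bases before to 50 after the start) were matched for 30 of the 39 members. The element was found in 5 of 13 cytosolic and dual genes (Aars, Gars, Iars, Tars and Yars), in 0 of 14 mitochondrial genes and in 0 of 3 scaffold genes. Of all 27025 genes with a window 4.51% held it. No other motif was searched. The stretches below carry the 6 sites, with the element in capitals, on the strand of the gene and 5′ to 3′. Those of 60 bases lie wholly before the start, and those of 28 bases surround a site that begins just past it.
Aars, chr8:111033704-111033763, plus strand: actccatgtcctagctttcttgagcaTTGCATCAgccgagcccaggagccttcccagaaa
Aars, chr8:111033841-111033868, plus strand: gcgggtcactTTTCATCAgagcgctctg
Gars, chr6:55037941-55038000, plus strand: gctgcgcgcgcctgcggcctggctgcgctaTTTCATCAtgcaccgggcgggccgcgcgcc
Iars, chr13:49682127-49682154, plus strand: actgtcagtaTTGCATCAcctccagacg
Tars, chr15:11399659-11399718, minus strand: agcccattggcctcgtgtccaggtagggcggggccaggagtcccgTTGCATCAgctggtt
Yars, chr4:129189896-129189923, plus strand: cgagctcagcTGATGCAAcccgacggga

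On the strand of the gene, 5 of the 6 sites read TTGCATCA or TTTCATCA, the reverse complement of the element, and that of Yars reads TGATGCAA. The site of Gars begins 30 bases before the start, that of Tars 15 before, and those of Aars 112 before and at base 10 of the transcript. Iars and Yars have theirs at bases 8 and 4 of the transcript. All 5 genes were called higher, with log2 fold changes from 1.16 to 2.64. The windows of Sars, Mars and Eprs, which also rose by more than 1, did not hold these letters. Nor did those of Farsb, Farsa and Dars, which were called higher at smaller changes. Within these windows a match thus went with only some of the increases. Windows were set on RefSeq starts, and that of Sars (chr3:108445210-108445509) lies wholly outside the position given for the gene above. No window was matched for Nars, Lars, Cars, Vars and Rars, which rose by more than 1 as well, nor for Wars and Hars, also called higher. Whether these genes hold the element was thus not examined.

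The mitochondrial synthetases showed no common direction. Of 16, 8 had a positive and 8 a negative log2 fold change, and their levels were low, with group means from 1.23 to 13.2 FPKM in Ctrl and from 1.40 to 10.8 FPKM in cKO. The 2 that were higher charge arginine and glutamate. Rars2 (ENSMUSG00000028292, chr4:34614957-34660167, plus strand) was at 6.30, 6.80 and 5.19 FPKM in Ctrl hearts and 8.95, 8.995 and 8.01 FPKM in cKO hearts, a log2 fold change of 0.45 ± 0.104 (adjusted p = 0.0173). Ears2 (ENSMUSG00000030871, chr7:122037213-122067263, minus strand), which charges both the glutamate and the glutamine tRNA in mitochondria, was at 2.01, 2.09 and 1.65 FPKM in Ctrl hearts and 2.74, 2.82 and 2.58 FPKM in cKO hearts, a log2 fold change of 0.35 ± 0.0854 (adjusted p = 0.0205). The groups did not overlap in either gene, but the gaps were small. Neither call held without cKO replicate 1 (log2 fold changes of 0.43 and 0.34), and that of Ears2 was also lost without Ctrl replicate 3 (0.28) and without a filter on low values.

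The 2 that were lower charge cysteine and phenylalanine. Cars2 (ENSMUSG00000056228, chr8:11513977-11550783, minus strand), also known as a source of cysteine persulfides, was at 4.19, 4.23 and 4.33 FPKM in Ctrl hearts and 2.69, 2.37 and 2.81 FPKM in cKO hearts, a log2 fold change of -0.54 ± 0.0754 (adjusted p = 0.00324). Fars2 (ENSMUSG00000021420, chr13:36117412-36726280, plus strand), which unlike its cytosolic counterpart works as a single chain, was at 9.22, 10.3 and 9.76 FPKM in Ctrl hearts and 6.77, 6.93 and 7.30 FPKM in cKO hearts, a log2 fold change of -0.43 ± 0.0727 (adjusted p = 0.00599). Every cKO heart was below every Ctrl heart in both, and both calls held in all 15 alternatives. Cars2 shares 422 of its 7237 exonic bases with Naxd (log2 fold change 0.18, adjusted p = 0.121), and Fars2 shares 501 of 5747 with Nrn1 (-0.96, adjusted p = 0.0159) and 115 with Lyrm4 (0.21, adjusted p = 0.046), each on the opposite strand.

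The other 12 mitochondrial members were not called. Tars2, Vars2 and Yars2 (threonine, valine and tyrosine) were at higher values in every cKO heart, with log2 fold changes of 0.27, 0.26 and 0.23, and Iars2, Hars2 and Lars2 (isoleucine, histidine and leucine) at lower values in every cKO heart, with -0.26, -0.18 and -0.09. Those closest to the threshold were Iars2 (adjusted p = 0.052), Tars2 (adjusted p = 0.0601) and Vars2 (adjusted p = 0.0603), and each of the 3 was called in at least 1 alternative. The groups overlapped in Mars2, Wars2, Pars2, Nars2, Aars2 and Sars2, with log2 fold changes between -0.16 and 0.21.

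**Figure D4:**
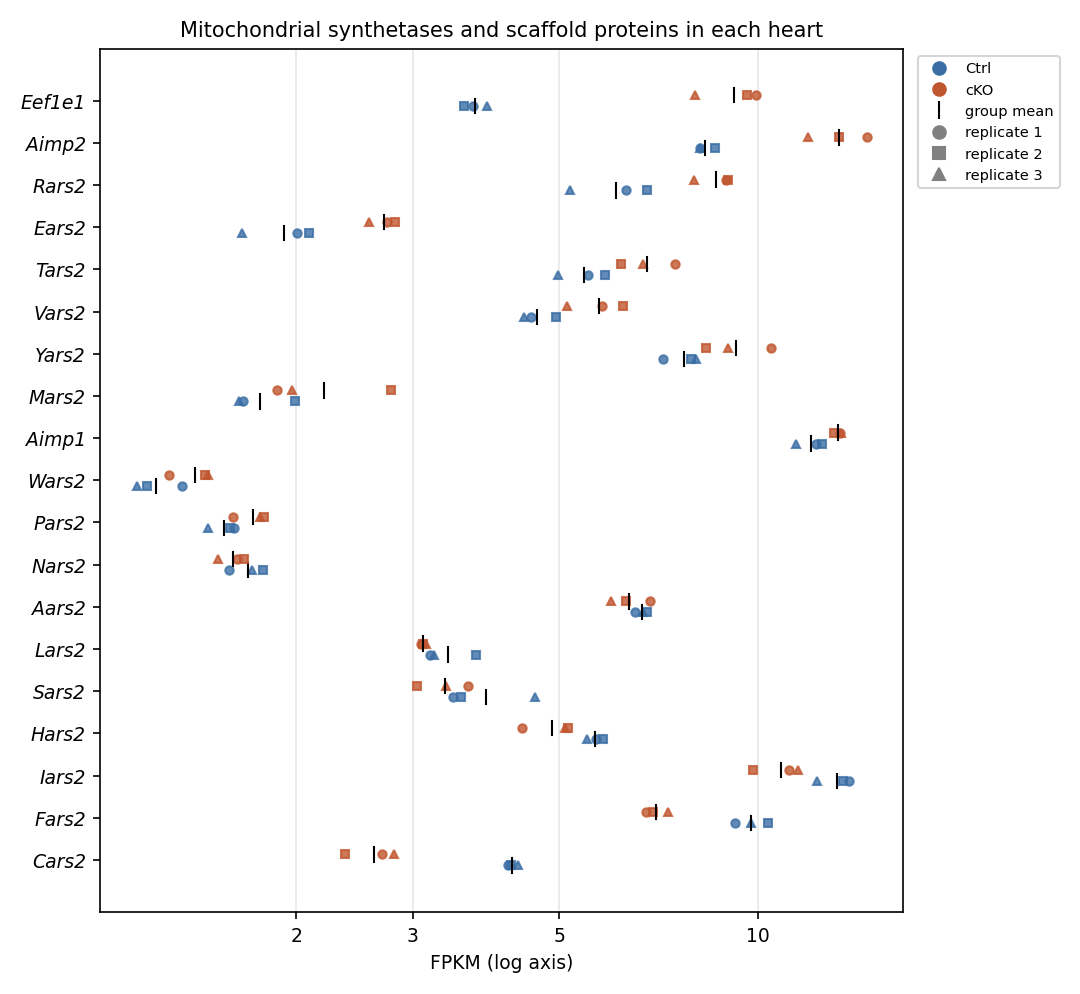
FPKM (log axis) of the 16 mitochondrial synthetase genes and the 3 scaffold genes in each heart, drawn as for the cytosolic genes and in order of their change. Eef1e1 and Aimp2 stand apart between the groups. Cars2 and Fars2 are lower in all cKO hearts, as are Iars2, Hars2 and Lars2 at smaller changes. Rars2, Ears2, Tars2, Vars2 and Yars2 are higher in all cKO hearts, and the groups overlap in the other mitochondrial genes.

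Whether the compartments differed was examined within each heart, since the ratio of a cytosolic to a mitochondrial gene does not depend on how hearts are scaled, apart from the small constant of 1 added to both. It was examined for 12 amino acids with a single gene for each compartment. The log2 ratio of cytosolic to mitochondrial level was higher in every cKO heart than in any Ctrl heart for 12 of 12 amino acids. Among single genes 24.8% of all tested were higher in this way, and no share was computed for ratios of other gene pairs. The cytosolic gene of each pair was also called higher by itself, so the ratios are not separate from those calls. The differences in the log2 ratio ran from 0.67 for arginine to 2.23 for serine with a median of 1.42. In each an exact two-sided permutation test gave p = 0.1, before and after Benjamini-Hochberg adjustment over the 12, which is the smallest value that 3 against 3 hearts allow.

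Serine had the largest shift, from log2 ratios of 1.88, 1.87 and 1.54 in Ctrl to 3.996, 4.08 and 3.89 in cKO. Cysteine came next, at -0.21, -0.32 and -0.46 in Ctrl and 1.77, 1.92 and 1.55 in cKO. The cysteine pair moved from both sides, since Cars was called higher and Cars2 lower. Asparagine, leucine and isoleucine followed, with shifts of 1.91, 1.68 and 1.65.

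Some pairs also changed their order. The mitochondrial gene was the more abundant of the pair in all 3 Ctrl hearts for cysteine and tyrosine and in 2 of 3 for isoleucine. The cytosolic gene was the more abundant in all 3 Ctrl hearts for the other 9 amino acids, and in all 3 cKO hearts for all 12. For tyrosine the FPKM ratio of Yars to Yars2 went from 0.719 ± 0.0483 to 2.25 ± 0.493, and for isoleucine that of Iars to Iars2 went from 0.947 ± 0.0817 to 3.15 ± 0.165 (SD, n = 3 each).

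**Figure D5:**
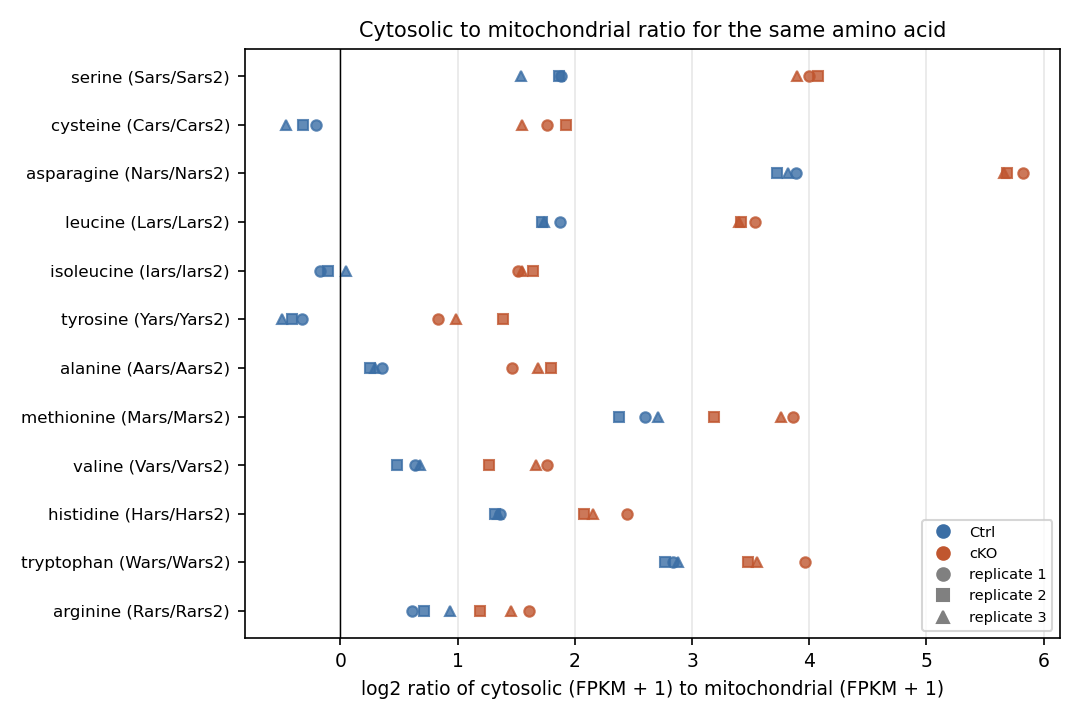
Log2 ratio of cytosolic (FPKM + 1) to mitochondrial (FPKM + 1) level for 12 amino acids with a single gene in each compartment. Points are hearts, with colours for groups and symbols for replicate numbers. In each row the 3 cKO hearts lie to the right of the 3 Ctrl hearts, by 0.67 (arginine) to 2.23 (serine).

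Histidine is the case in which both genes of the pair lie head to head, and the exons of Hars and Hars2 share 195 bases. The FPKM ratio of Hars to Hars2 was 2.80 ± 0.0527 in Ctrl and 5.47 ± 0.852 in cKO. Eprs, Farsb and Tars, which are in none of the 12 pairs, gave ratios in the same direction. Eprs to Ears2 went from 3.78 ± 0.495 to 9.25 ± 1.34, Eprs to Pars2 from 4.61 ± 0.227 to 14.7 ± 2.51, Farsb to Fars2 from 1.57 ± 0.0663 to 4.08 ± 0.464 and Tars to Tars2 from 0.950 ± 0.0945 to 1.89 ± 0.277 (SD, n = 3 each). The groups did not overlap in any of these ratios.

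Among genes that work beside the synthetases the count of calls was near that of all genes. Of 16 charging partners, 15 passed the filter, and 3 were higher and 1 lower in cKO, against 16.3% and 17% of all genes tested, with a median log2 fold change of 0.12. Xpot, which exports tRNA from the nucleus, was at 7.23, 7.75 and 7.46 FPKM in Ctrl hearts and 20.6, 23.1 and 21.5 FPKM in cKO hearts, a log2 fold change of 1.42 ± 0.0726 (adjusted p = 0.000165). Each charging reaction releases pyrophosphate, which Ppa1 splits in the cytosol and Ppa2 in mitochondria. Ppa1 was at 12.2, 13.7 and 13.5 FPKM in Ctrl hearts and 25.3, 23.97 and 22.5 FPKM in cKO hearts (0.82, adjusted p = 0.00122), and Ppa2 at 6.30, 7.41 and 5.97 FPKM in Ctrl hearts and 3.44, 4.02 and 4.28 FPKM in cKO hearts (-0.62, adjusted p = 0.00583). The pyrophosphatases of the compartments thus moved in opposite directions, with no overlap between groups in either.

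Dtd1, which removes D-amino acids from tRNA, was also called higher (log2 fold change 0.31, adjusted p = 0.0265). Of the subunits that convert glutamyl- to glutaminyl-tRNA in mitochondria, Gatb, Gatc and Qrsl1 had log2 fold changes of -0.15, 0.19 and -0.11 and none was called. The tRNA end-adding enzyme Trnt1 was at 0.25 (adjusted p = 0.0578), and Mtfmt, which prepares the initiator tRNA of mitochondria, at 0.15 (adjusted p = 0.265).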

How the data were processed

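RNA of 6 mouse hearts (3 cKO, 3 Ctrl) was measured, with groups and replicate numbers from the sample titles and 1 value column per heart matched by name. The authors selected poly-A RNA and prepared libraries with a NEBNext Ultra kit. Per the labels' processing notes they used HISAT2 2.0.5, featureCounts 1.5.0-p3 and DESeq2 1.16.1. The authors deposited FPKM values of 54532 genes, computed from read count and gene length, and other gene-level columns (length, position, biotype). Whether counting used strand is not given in the sources used here, so overlapping genes may share reads, and 13 members overlap a tested gene in position. Their shared exonic bases were counted from GENCODE M21, whose exonic length equals the deposited length for 11 of the 13. The notes name mm9, but all 39 members described lie on the same chromosome in GENCODE M21 (GRCm38), 36 with identical ends, and coordinates are given as in the table.

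FPKM multiplied by length gave whole reads (within 0.1 of a read) for 100% of values. The library size behind FPKM was 0.913 to 0.980 times the recovered total in Ctrl and 1.06 times in cKO. Depth was 15989322 to 24875499 reads, and the titles' replicates were taken as separate hearts, so p-values measure the spread between these libraries. No pair of hearts within a group agreed within counting noise. The 2 pairs with cKO replicate 2 differed most, with a mean chi-square per gene of 43.1 and 40.8, against 13.2 to 16.7 in the other pairs.

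The 12944 genes averaging 0.5 FPKM or more were tested with limma 3.58.1 in R 4.3.3 on log2(FPKM + 1), two-sided, with an intensity trend and no covariates, Benjamini-Hochberg over all genes and calls at an adjusted p under 0.05. The design of 2 groups without covariates follows the study's methods. The log scale was used since the unit is FPKM, and the constant of 1 added before the log understates changes of low genes. With a constant of 0.1 the log2 fold change was 0.49 in place of 0.35 for Ears2 and -0.68 in place of -0.54 for Cars2. The exact permutation test used scipy 1.17.1. Members, lists and the motif were chosen with earlier results of these data known, some after values were seen. Of the 40 genes that the rule gave, 1 is not reported here and was left out of all member counts. Values in every heart are given for members called with a log2 change of at least 1 in size, for called mitochondrial and scaffold genes, and for Eprs. They are also given for Mrps5, Kars, Qars, Tarsl2, Aimp1, Xpot, Ppa1, Ppa2, Atf4, Trib3 and Atf5, which this rule did not select. A duplicate Ddit3 row at 0 was left out. Alternatives were other pseudocounts, filters, scalings and variance models, voom on recovered reads, a replicate block, protein-coding genes only, and leaving out each heart. The scripts were run on simulated counts with the same noise setting for every gene. The spread between these hearts need not follow that setting, so the simulation gives no error rate for these data.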

Additional observations from a re-analysis of the deposited data

How the results depend on the processing

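Over 15 alternatives, the 39 members, Eprs and Mrps5 gave 615 values, of which 590 kept direction and side of the threshold, 14 lost a call (Dars, Tarsl2, Ears2 and Rars2), 9 gained one (Kars, Iars2, Tars2 and Vars2) and 2 changed sign without a call. These were Aars2 (0.0224) and Nars2 (0.00881) with mtDNA-encoded genes taken out of the scaling. The count of cytosolic and dual members called higher stayed between 16 and 18, and of mitochondrial members called lower between 2 and 3, and the 12 amino acid ratios never overlapped between groups. Cytosolic and dual members called lower were 0 without a filter and 0 to 1 without single hearts (0 without Ctrl replicate 2 or 3 or cKO replicate 1 or 3). Mitochondrial members called higher were 1 without a filter, 4 with mtDNA-encoded genes taken out of the scaling, 4 with voom, and 0 to 3 without single hearts (0 without cKO replicate 1). Over all genes, leaving out single hearts gave 2828 to 3988 calls (1396 to 1977 higher and 1423 to 2011 lower), against 4315, the fewest without Ctrl replicate 3. Hearts with the same number deviated together little or not at all (correlations of -0.06, 0.17 and -0.01). Such correlations cannot show whether these hearts shared a litter or batch. The study's methods call the controls littermates, without saying which mice were related. With a replicate block 3856 genes were called, 1874 higher and 1982 lower, with 16 cytosolic and dual members higher. Leaving out members that overlap another tested gene, chosen after seeing the data, left 12 of 14 cytosolic and dual genes higher. The cause of these shifts was not tested.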

Other observations

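Most listed genes of the integrated stress response were also higher in the cKO hearts. Of 10 listed genes, some of them regulators and some targets, 7 were higher in cKO and none lower. Of all genes tested 16.3% were higher and 17% lower. The median log2 fold change of the 10 was 1.38. Those not called were Ddit3 (log2 fold change 1.66, adjusted p = 0.0699), Chac1 (1.37, adjusted p = 0.141) and Cebpb (-0.04, adjusted p = 0.915). Atf4, the transcription factor named above, was at 37.9, 41.8 and 39.3 FPKM in Ctrl hearts and 66.2, 153 and 125 FPKM in cKO hearts. Trib3, a target and brake of ATF4, was at 1.60, 1.15 and 1.63 FPKM in Ctrl and 4.75, 36.2 and 28.8 FPKM in cKO. Atf5, a related factor, was at 32.3, 26.5 and 32.8 FPKM in Ctrl and 231, 175 and 232 FPKM in cKO.

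Among the cKO hearts, replicate 1 had the lowest value in 8 of these 10 genes (all but Atf5 and Cebpb), and the highest in 14 of the 20 cytosolic and dual synthetases. Its summed level of cytosolic and dual synthetases was 789 FPKM, against 696 and 703 FPKM in the other 2 cKO hearts, while its Atf4 level was the lowest of the 3. With 3 cKO hearts this is a description of single libraries, and no relation between the levels was tested.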
